A study of Bos taurus with 25 samples.

Results

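IFI6 and IFI27 are interferon-inducible genes, and their mRNA was measured in liver and mammary biopsies of lactating multiparous Holstein cows with Agilent bovine 4 × 44K 1-colour arrays. Every non-control probe whose array name maps to either gene was taken, which gave 4 of 43653 probes, 1 for IFI6 (A_73_P037521, gene ID 512913) and 3 for IFI27 (A_73_P150766, A_73_P036551 and A_73_P269341, gene ID 507138). These 2 of the 11068 genes with a symbol were chosen by their rise in the liver of cows given vitamin B12, the largest of all, so the values of that comparison are described here without a test. Cows received weekly injections of 5 mL, and biopsies were taken 64 ± 3 days after calving. The saline group gave 3 liver and 3 mammary arrays. In the B9 group cows were given 320 mg of folic acid (vitamin B9, as pteroylmonoglutamic acid), with 3 arrays of each tissue. Those of the B12 group were given 10 mg of cyanocobalamin (vitamin B12), with 4 arrays of each tissue. The B9+B12 group received both at these doses and gave 2 liver and 3 mammary arrays. In all there were 25 arrays of 13 cows, each array with the RNA of a single cow and tissue, and 12 cows gave both tissues.

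Interferons are secreted in response to viral or other foreign nucleic acid. Type I interferons bind the receptor pair IFNAR1 and IFNAR2, whose kinases pass the signal to transcription factors that switch on a broad set of interferon-stimulated genes. IFI6 and IFI27 belong to that set and encode small hydrophobic membrane proteins of the ISG12 family. IFI6 is known to restrain apoptosis and the replication of some flaviviruses, and IFI27 is a mitochondrial protein tied to apoptosis.

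The arrays had from 64.5% to 84.2% of probes well above background. The liver arrays of a B9 cow (cow 57) and a B9+B12 cow (cow 32) stood apart from the other liver arrays, with median correlations to them of 0.972 and 0.973 against 0.989 to 0.992 for the rest. The main values that rest on these arrays are given with and without them. The labelled tissues matched their markers. The summed intensity of 8 hepatocyte genes ranged from 2119864 to 2387211 in liver and from 3696 to 20367 in mammary gland, and that of 7 mammary epithelium genes from 1774160 to 1943493 in mammary gland and from 33576 to 72681 in liver. The arrays lay on 8 slides, and 3 liver arrays (cow 43, saline, cow 32, B9+B12, and cow 37, B12) were scanned on another day than the rest. The spots of all 4 IFI6 and IFI27 probes were well above background on all 25 arrays, and none was saturated or called an outlier.

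In liver, IFI6 was far brighter in the cows given B12 alone than in any other cow. On the log2 intensity scale, normalized by quantiles within the tissue, the 4 B12 cows had IFI6 levels of 17.50 (cow 36), 16.26 (cow 37), 16.92 (cow 40) and 16.81 (cow 52). The saline cows had levels of 13.36 (cow 42), 13.07 (cow 43) and 12.98 (cow 51). All B12 cows thus lay above all saline cows, and the lowest of them exceeded the highest of the other 8 liver arrays (13.69, cow 32) by 2.57, or by 2.89 without the arrays of cows 57 and 32. The B12 cows averaged 16.87 ± 0.51 (SD, n = 4) and the saline cows 13.14 ± 0.20 (SD, n = 3), a difference of 3.74 (SE 0.31), or 13.3-fold. The spot signals before any normalization showed the same separation, with 66656 to 162891 in the B12 cows and 8055 to 14034 in the saline cows.

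IFI27 showed the same separation in liver. Its brightest probe, A_73_P150766, had levels of 17.47, 16.55, 17.13 and 17.08 in B12 cows 36, 37, 40 and 52. In saline cows 42, 43 and 51 the levels were 14.12, 14.62 and 13.59. The lowest B12 cow exceeded the highest of all other liver arrays (15.24, cow 57) by 1.31, or by 1.93 without the arrays of cows 57 and 32. The B12 cows averaged 17.06 ± 0.38 (SD, n = 4) and the saline cows 14.11 ± 0.52 (SD, n = 3), a difference of 2.95 (SE 0.51), or 7.71-fold. Cow 37 had the lowest level of the B12 group for both genes, and cow 36 the highest. By qPCR on a larger set of cows, the paper describes the increase of IFI27 in liver as not significant. It counts IFI27 among genes with a trend under the vitamin treatments.

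Among the 11068 genes with a symbol, IFI6 had the largest and IFI27 the second largest difference between B12 and saline in liver, which is how they were chosen. The genes just outside that choice were ISG12(B) at 2.50, the ubiquitin-like modifier ISG15 at 2.48 and the oligoadenylate synthetase OAS1X. OAS1X was not well above background on any of the 3 saline liver arrays and was so on 3 of the 4 B12 arrays. It is therefore given as 5.44-fold higher, against the lowest signal well above background. This is not a strict lower bound, since a B12 array not well above background enters the mean. Over all probes, 2.46% had all B12 liver arrays above all saline arrays, and 0.17% were at least 2-fold higher with B12. All 4 IFI6 and IFI27 probes met both conditions, which the choice fixed. Within a slide, B12 cow 40 exceeded saline cow 51 by 3.95 for IFI6 and 3.54 for IFI27. On the slide of the other scan day, B12 cow 37 exceeded saline cow 43 by 3.18 for IFI6 and by 1.93 for IFI27. In these bulk biopsies, fewer cells of a type and less RNA per cell cannot be told apart.

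**Figure D1:**
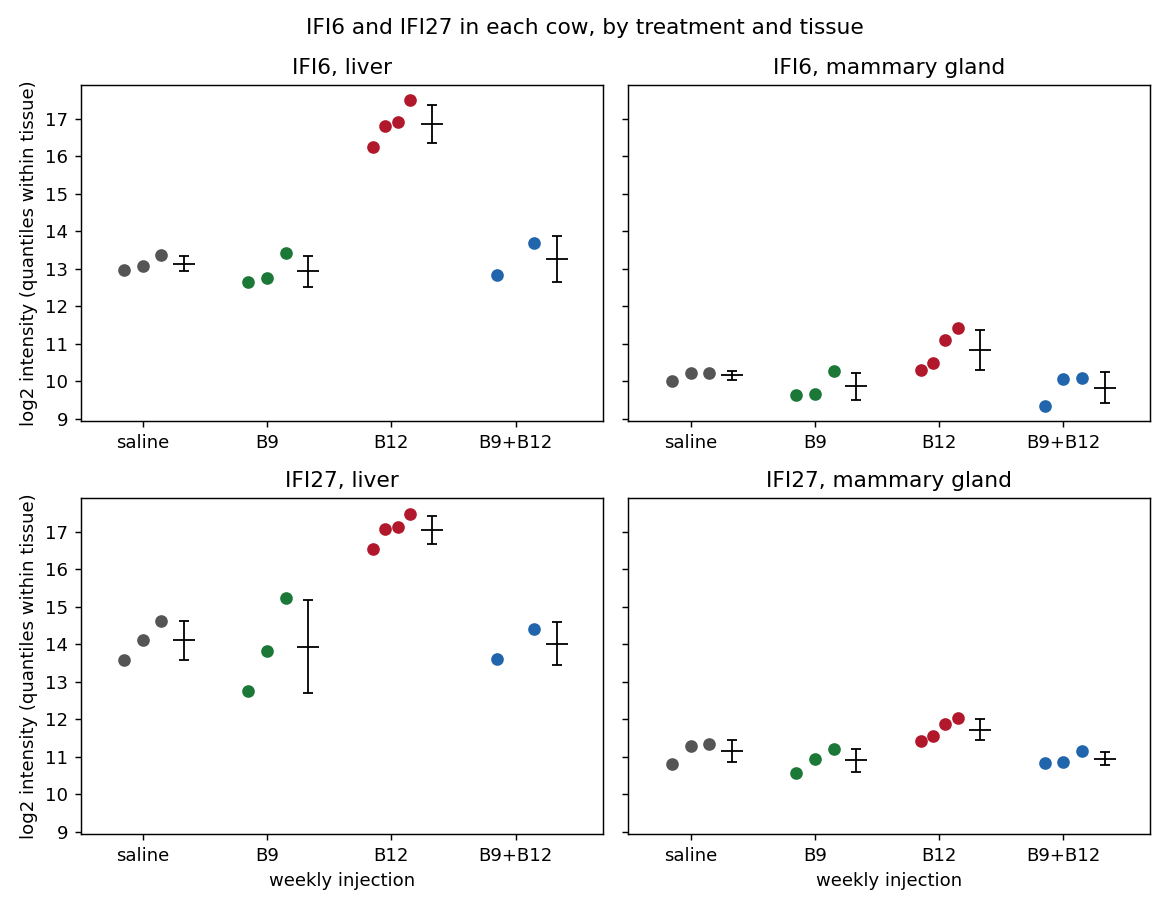
Log2 intensity of IFI6 (top) and IFI27 (probe A_73_P150766, bottom) in liver (left) and mammary gland (right) by weekly injection, with 1 point per cow and the group mean ± SD beside the points. The 4 B12 livers lie above all 8 other livers for both genes, by 2.57 for IFI6 and 1.31 for IFI27, whereas the mammary levels of all groups lie between 9.34 and 12.05.

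The other groups asked whether the liver level moved with folic acid, or with B12 where folic acid was also given. In the B9 cows, IFI6 had levels of 12.64 (cow 39), 12.75 (cow 41) and 13.42 (cow 57), and in the B9+B12 cows 13.69 (cow 32) and 12.82 (cow 38). Both groups overlapped the saline cows and each other, and no B9+B12 cow came near the cows given B12 alone. B9+B12 exceeded B9 by 0.32 (SE 0.37), with a 95% interval of −0.51 to 1.15 (limma, adjusted P = 0.997).

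IFI27 had levels of 12.77, 13.82 and 15.24 in B9 cows 39, 41 and 57, and of 14.42 and 13.62 in B9+B12 cows 32 and 38. The B9 cows spread more widely than any other liver group, and they enclosed both B9+B12 cows. The difference was 0.08 (SE 0.61), with an interval of −1.29 to 1.44 (limma, adjusted P = 0.999). The exact permutation test gave P = 0.5 for IFI6 and P = 0.9 for IFI27, where 2 against 3 arrays cannot go below 0.1. Without the arrays of cows 57 and 32 the differences were 0.124 (SE 0.408) for IFI6 and 0.322 (SE 0.536) for IFI27, with 1 cow left in the B9+B12 group. Cows 38 (B9+B12) and 57 (B9) shared a slide, and there the B9+B12 cow was lower, by −0.59 for IFI6 and by −1.62 for IFI27.

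Against saline, B9 alone differed by −0.20 (SE 0.33, interval −0.94 to 0.54) for IFI6 and by −0.17 (SE 0.55, interval −1.39 to 1.05) for IFI27, with adjusted P = 0.932 and 0.970 by limma. B9+B12 differed from saline by 0.12 (SE 0.37, interval −0.71 to 0.95) and by −0.09 (SE 0.61, interval −1.46 to 1.28), with adjusted P = 0.926 and 0.968. Neither difference was larger than the spread between cows for either gene. Without the arrays of cows 57 and 32 they were −0.438 and −0.818 for B9 and −0.314 and −0.496 for B9+B12, for IFI6 and IFI27 in turn, and none passed the test. These comparisons share the saline arrays with the one that chose the genes. Limma called 0 of 43653 probes (0%) in each of these 3 liver comparisons where a call needs a 2-fold difference and an adjusted P no higher than 0.05. At an unadjusted P below 0.05 there were 2125 probes for B9+B12 against B9, 1545 for B9 and 2492 for B9+B12 against saline. Cyber-T, the regularised test of the study's methods, called 8, 5 and 23 probes, none of them IFI6 or IFI27. On slide 4, which held liver arrays of 3 groups, B9 cow 57 differed from saline cow 42 by 0.05 for IFI6 and 1.12 for IFI27, and B9+B12 cow 38 from the same cow by −0.54 and −0.51.

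The other IFI27 probes followed the first in direction, A_73_P036551 at a similar level and A_73_P269341 at a lower one. A_73_P036551 had levels of 17.26, 16.61, 16.93 and 16.85 in the B12 cows, in the same order of cows as above, and of 13.77, 14.67 and 13.38 in the saline cows. A_73_P269341 was dimmer and more variable, with 14.08, 11.26, 13.42 and 13.48 in the B12 cows and 10.48, 10.84 and 8.06 in the saline cows. The B12-minus-saline differences were 2.97 and 3.26. With A_73_P269341 the B12 cows cleared the other livers by only 0.01, since B9 cow 57 also reached 11.26, and by 0.42 without the arrays of cows 57 and 32. In each IFI27 probe that cow had the highest liver level outside the B12 group.

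IFI27 lies between ISG12(B) and IFI27L2 in the ARS-UCD2.0 assembly, whose gene table was used for names and neighbours alone. IFI27L2, a family member on the same stretch, had levels of 11.69, 9.67, 11.15 and 11.05 in the B12 livers and of 11.07, 11.14 and 10.33 in the saline livers. Its groups overlapped, and the difference of 0.04 (SE 0.45) ranked 14285 among all probes. ISG12(B), named after its values were seen, had levels of 13.71, 9.97, 9.83 and 9.84 in the B12 livers and of 8.33, 8.57 and 8.09 in the saline livers. All 4 B12 cows lay above the saline cows, but cow 36 alone carried much of the mean difference of 2.50 (SE 0.90), and B9+B12 cow 32 at 10.04 lay above 3 of the B12 cows. In mammary gland ISG12(B) stayed between 7.86 and 8.60 in all 13 cows. No probe was matched to IFI27L1. Whether probes of these related genes share target RNA was not tested.

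**Figure D2:**
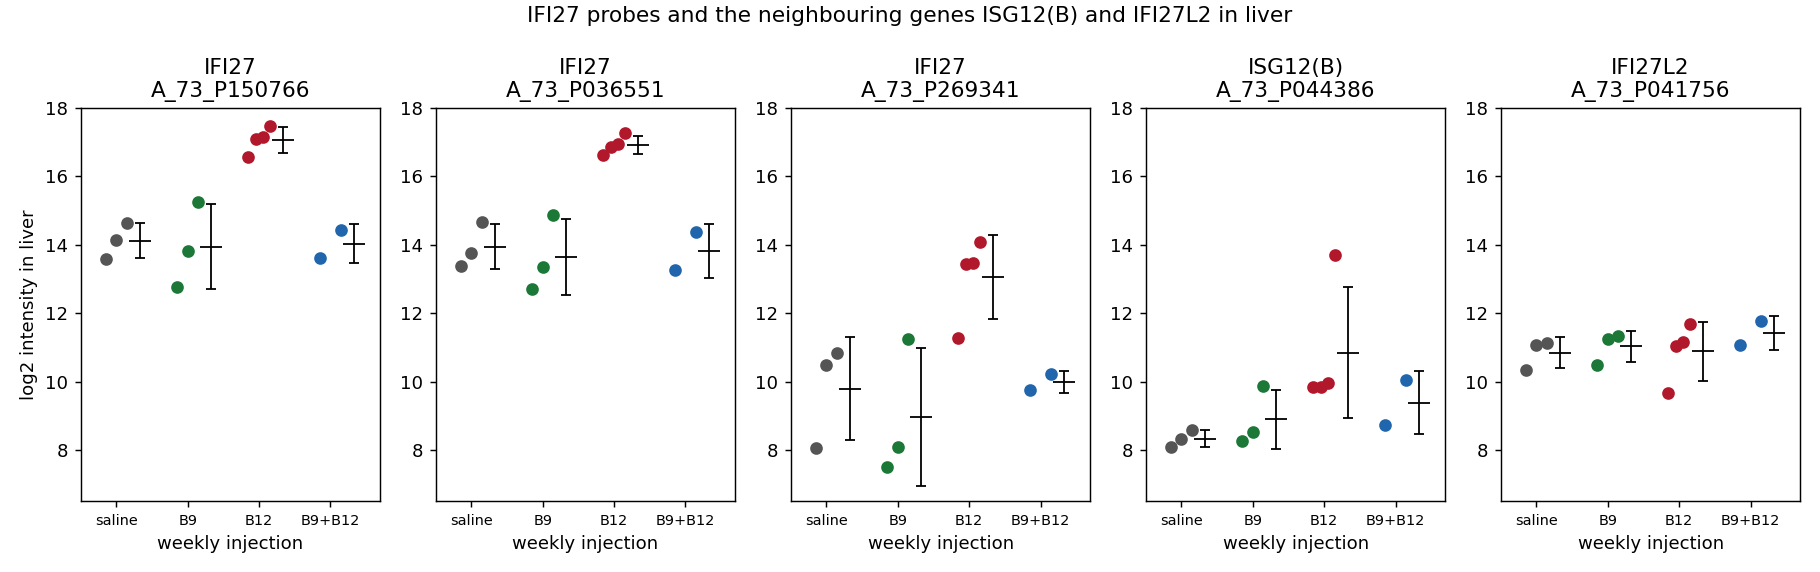
Log2 intensity in liver of the 3 IFI27 probes and of the neighbouring genes ISG12(B) and IFI27L2, by weekly injection, with 1 point per cow and the group mean ± SD. The B12 group lies highest for each IFI27 probe, ISG12(B) has 1 B12 cow at 13.71 far above the others, and the 4 groups of IFI27L2 overlap.

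In mammary gland, whose arrays the choice of the genes did not use, both genes were slightly brighter in the B12 cows. IFI6 had levels of 10.48, 11.43, 10.29 and 11.11 in B12 cows 36, 37, 40 and 52, and of 10.23, 10.22 and 10.02 in saline cows 42, 43 and 51. IFI27 (A_73_P150766) had levels of 11.88, 12.05, 11.43 and 11.54 in the same B12 cows and of 10.82, 11.34 and 11.29 in the saline cows. All 4 B12 cows lay above all 3 saline cows for both genes, by a gap of only 0.06 for IFI6 and 0.09 for IFI27, and 2.2% of all probes were separated in this direction.

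The difference was 0.67 (SE 0.28, interval 0.04 to 1.30), or 1.59-fold, for IFI6 and 0.57 (SE 0.19, interval 0.15 to 1.00), or 1.49-fold, for IFI27. The unadjusted limma P was 0.0388 and 0.0123, and the adjusted P was 1 for both. The exact permutation test, two-sided, gave P = 0.114 for IFI6 and P = 0.0571 for IFI27, where the smallest possible value is 0.0286. So neither gene passed the adjusted test or the exact test in mammary gland. Among the other IFI27 probes, A_73_P036551 differed by 0.78 with 3 of 4 B12 cows above the saline cows, and A_73_P269341 by 0.29 with 1 of 4. With slide as a fixed block the differences were 0.622 for IFI6 (SE 0.387) and 0.407 for IFI27 (SE 0.241), with adjusted P = 0.988 and 0.985 by limma. Within slides, B12 cow 52 exceeded saline cow 43 by 0.89 for IFI6 and 0.20 for IFI27, and B12 cow 40 exceeded saline cow 51 by 0.27 and 0.14. The mammary epithelium genes had a summed intensity of 1774160 to 1845116 with B12 and of 1866328 to 1873013 with saline, and a median difference of −0.03. The sums of the other cell type lists overlapped between these groups. The part of cell types in the mammary differences was not tested.

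With folic acid in the injection, the mean mammary levels were below those of saline, by less than the tests resolve. IFI6 had levels of 9.67, 10.28 and 9.64 in B9 cows 39, 41 and 57, and of 10.06, 9.34 and 10.08 in B9+B12 cows 31, 32 and 38. Against saline the differences were −0.29 (SE 0.30) with B9 and −0.33 (SE 0.30) with B9+B12. IFI27 had levels of 10.93, 11.20 and 10.58 with B9, and of 11.14, 10.87 and 10.83 with B9+B12. Its differences were −0.25 (SE 0.20) and −0.20 (SE 0.20). The groups overlapped saline for both genes, and the exact permutation P ranged from 0.3 to 0.4 where 3 against 3 cannot go below 0.1. Of the other IFI27 probes, A_73_P036551 differed by −0.25 with B9 and −0.31 with B9+B12, and A_73_P269341 by −0.58 (SE 0.25) and −0.13 (SE 0.25). The −0.58 had an unadjusted limma P of 0.0422 and was not called. The 3 mammary comparisons share the saline arrays. Limma called 0% of probes in each of them, with 1111, 981 and 844 probes at an unadjusted P below 0.05 for B9, B12 and B9+B12, and Cyber-T called 6, 9 and 6. By Cyber-T, the B12 effect in mammary gland had an adjusted P of 0.819 for IFI6 and 0.970 for IFI27.

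The level of a gene in both tissues was compared on values normalized over all 25 arrays together. In the 5 cows given B9 or B9+B12, whose arrays did not enter the choice, IFI6 was higher in liver than in mammary gland by 1.66 ± 0.77 (SD, n = 5) and IFI27 by 1.36 ± 1.05. Each of these cows had the higher level in liver, and the exact sign-flip test over cows gave P = 0.0625, the smallest value that 5 pairs allow. Limma, here and in the next fit, did not pair the tissues of a cow and took in the mammary array of cow 31. On the arrays of these groups limma gave 1.65 (SE 0.240) with adjusted P = 0.000493 for IFI6 and 1.31 (SE 0.387) with adjusted P = 0.0218 for IFI27. Without cows 57 and 32, whose liver arrays stood apart, the 3 remaining cows had a gap of 1.14 ± 0.28 (SD, n = 3; 0.87 to 1.42) for IFI6 and of 0.69 ± 0.47 (0.17 to 1.07) for IFI27. Limma then gave 1.15 (SE 0.172) with adjusted P = 0.00543 for IFI6 and 0.699 (SE 0.274) with adjusted P = 0.105 for IFI27, which was thus no longer called. Over all arrays, where the average includes the B12 livers that chose the genes, 8.84% of probes were called higher in liver, and 47.5% of the 8120 calls had this direction. When arrays were scaled to their 75th percentile instead of by quantiles, the median of all probes moved from −0.02 to −0.80 and the share of calls higher in liver to 19.3% of 18938, while the tissue gap was 2.69 for IFI6 and 2.41 for IFI27 against 2.30 and 1.90.

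The tissue gap differed widely between cows. Among saline cows, IFI6 in liver and mammary gland was 12.43 and 10.97 (cow 42), 12.17 and 10.95 (cow 43), and 12.08 and 10.74 (cow 51), a gap of 1.34 ± 0.13. Among B12 cows it was 16.84 and 11.23 (cow 36), 15.52 and 12.27 (cow 37), 16.25 and 11.03 (cow 40), and 16.15 and 11.92 (cow 52), a gap of 4.58 ± 1.06. For IFI27 the gap was 1.17 ± 0.55 in saline cows and 3.80 ± 0.57 in B12 cows. The livers of these groups chose the genes, so the wider gap with B12 follows largely from the choice. Its smallest gap was in B9 cow 39, at 11.89 in liver and 11.72 in mammary gland, and the largest outside the B12 group was in B9 cow 57, at 14.27 and 11.33. All 12 cows had more of both transcripts in liver.

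**Figure D3:**
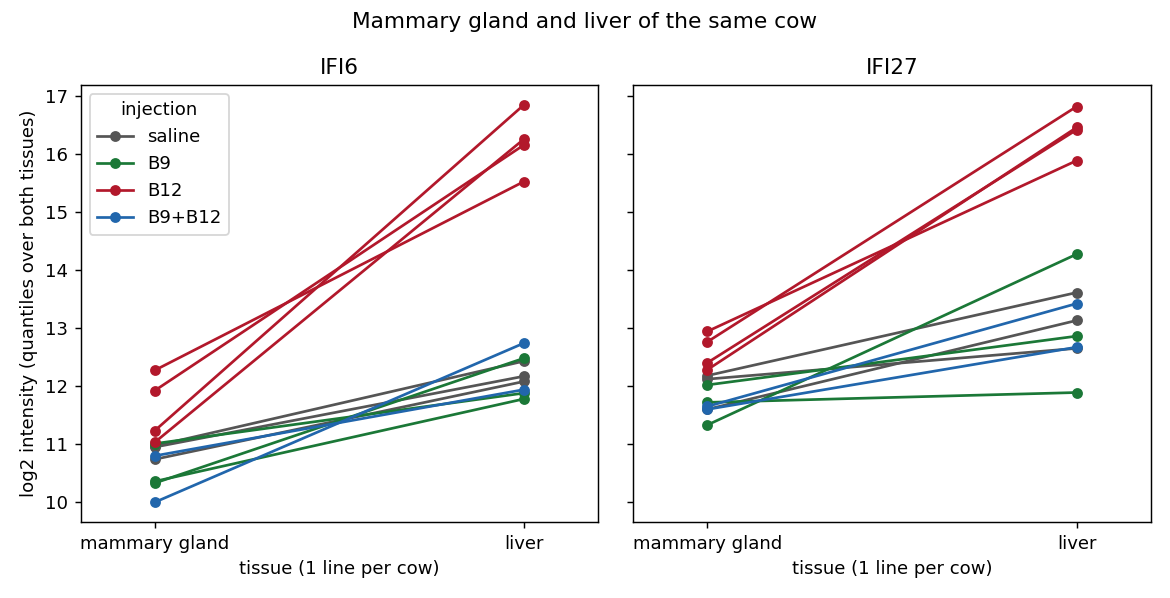
Log2 intensity of IFI6 and IFI27 (A_73_P150766) in mammary gland and liver, normalized over all arrays, with 1 line for each of the 12 cows with both tissues, coloured by injection. Every line rises towards liver. The mean gap is largest in the B12 cows, whose livers took part in the choice of the genes, at 4.58 for IFI6 and 3.80 for IFI27. For IFI27 the lines of B9 cow 57 and B12 cow 37 rise equally, by 2.94.

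No shared deviation of a cow from its group in both tissues was detected. Over the 12 cows, the deviations of liver and mammary levels from their group means had r = −0.71 and rho = −0.71 for IFI6 (exact permutation within groups, two-sided, P = 0.0874, adjusted over 2 genes 0.175). For IFI27, r was −0.36 (permutation P = 0.42) and rho −0.29 (permutation P = 0.457). Without the pair of cows farthest from the median, r was −0.53 for IFI6 and −0.15 for IFI27. With cows 57 and 32 left out instead, the 10 remaining cows gave r = −0.61 for IFI6 and 0.05 for IFI27 (exact permutation P = 0.288 and 0.927). B12 cow 37 was such a case for IFI6, with the lowest liver and the highest mammary level of its group. The effects of B9, of B9+B12, and of B9+B12 against B9 on both genes differed between liver and mammary gland by −0.01 to 0.47 on the log2 scale, none past the threshold (limma interaction terms, adjusted P of at least 0.856). Without the liver arrays of cows 57 and 32 these differences between the tissues ran from −0.48 to 0.25, with adjusted P = 1 for each by limma.

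The remaining interferon pathway was read from lists of genes by role. Of 6 interferon ligand symbols looked up, 1 was matched to a probe, IFNG, the type II interferon. Of 36 further interferon-induced effectors 21 were matched by symbol, and probes without a current symbol could hold others. Their median difference between B12 and saline in liver was 0.52, with a range of 0.03 to 2.48, against a median of 0.01 over all genes. At least 2-fold higher were 6 of the 21, namely ISG15 (2.48), OAS1X (5.44-fold, as given above), the antiviral GTPase MX1 (1.76), the ubiquitin ligase HERC6 (1.69), viperin, encoded by RSAD2 (1.35), and OAS1Y (1.12). Over all probes, 0.17% were so. All B12 livers lay above all saline livers for 3 of the 21, where 2.46% of all probes did. Since every gene of these arrays took part in the choice, these values are a description as well. The paper's qPCR, on a larger set of cows, did not establish a B12 effect on ISG15 or HERC6 in liver.

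Among the B12 livers ISG15 spread more widely than either gene, with an SD of 1.38 against 0.51 for IFI6 and 0.38 for IFI27 (A_73_P150766). The dimmer IFI27 probe A_73_P269341 had an SD of 1.23. ISG15 had liver levels of 15.96, 15.40, 12.93 and 13.91 in B12 cows 36, 37, 40 and 52, of 11.61, 12.04 and 12.56 in the saline cows, and of 14.57 in B9 cow 57. MX1 had levels of 13.98, 14.11, 10.72 and 13.05 in the same B12 cows, of 11.35, 11.66 and 10.62 in the saline cows, and of 12.93 in B9 cow 57. Cow 40 was thus at the saline level of MX1, while its IFI6 and IFI27 levels were the second highest measured. Cow 57 was high in ISG15 and MX1 without B12, and in that liver IFI6 was at 13.42, just above the highest saline cow (13.36), and IFI27 at 15.24 against a highest saline level of 14.62. OAS1Y had levels of 16.34, 16.10, 13.68 and 15.46 in the B12 cows and 14.05 to 14.50 in the saline cows, so that cow 40 was lower than every saline cow. HERC6 separated the groups, with 10.33, 10.89, 8.90 and 9.67 in the B12 cows and 8.04 to 8.51 in the saline cows. OAS1X was at 10.23 and 11.05 in B12 cows 36 and 37 and at 6.45 and 6.02 in cows 40 and 52, and it was well above background on 4 of 12 liver arrays.

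Upstream of the effectors, 12 of 18 receptor and signalling genes were matched by symbol, with a median difference of 0.04 between B12 and saline in liver. The receptor chains IFNAR1 and IFNAR2 differed by −0.13 and 0.29, and the transcription factors IRF7 and IRF9 by 0.86 and 0.15. USP18, which removes ISG15 from proteins and dampens the receptor, differed by 0.99. The 5 nucleic acid sensors matched, of 11 symbols listed for 9 genes, had a median of 0.17, with 0.35 for DHX58. The 10 interferon gamma targets, of 12 listed, had a median of 0.32 and a range of −0.48 to 1.05. STAT2, IFIT2, IFI44, IFI44L and IFIH1 had no probe matched by symbol.

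In the comparison of B9+B12 with B9 in liver, the effectors lay on the other side. Their median was −0.38 against 0.02 over all genes, with 8 of 21 lower in both B9+B12 cows than in all B9 cows (OAS2, IFIT3, HERC6, XAF1, PARP9, DTX3L, UBA7 and PLSCR1) and 1 higher (MX2). PLSCR1 was not well above background on any liver array. Over all probes, 7.1% lay wholly below and 6.66% wholly above in this comparison. Against saline, 8 of the 21 effectors were lower in both B9+B12 cows and 1 was higher, where 9.96% of all probes lay wholly below and 11.8% wholly above, and the median was −0.28. With B9 alone the median was 0.17. No effector was called in any of these comparisons, and 2 B9+B12 cows limit what the counts can show. Without the arrays of cows 57 and 32 the medians were −0.25 for B9+B12 against B9, −0.29 for B9+B12 and −0.01 for B9 against saline, with 1 B9+B12 cow left. In that setting 13 of the 21 lay wholly below in both B9+B12 comparisons, where 33.7% of all probes did against B9 and 23.7% against saline, and 1 lay wholly above in each. Lists of other cell types also had medians away from 0 in these comparisons, with no gene called. The median difference of B9+B12 from B9 was 0.38 for T and NK cell genes, 0.36 for B and plasma cell genes, 0.38 for endothelium, 0.11 for macrophages and −0.22 for neutrophils, and from saline it was 0.53, 0.71, 0.66, 0.18 and −0.08. The summed intensity of the 7 T and NK cell genes was 6850 to 8174 with B9+B12, 4843 to 5476 with B9 and 4656 to 6815 with saline. That of the 2 endothelium genes was 1307 to 1786, 946 to 1482 and 805 to 1026, and that of the 4 B and plasma cell genes 2910 to 3673, 1837 to 4139 and 1358 to 2895. The part of these cells in the effector differences was not tested.

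In mammary gland the effectors had a median of 0.17 with B12, −0.07 with B9 and −0.04 with B9+B12, and none was called. ISG15 had the largest difference among them with B12, with levels of 9.96, 10.50, 8.65 and 9.81 in cows 36, 37, 40 and 52 and of 8.21, 8.65 and 8.83 in the saline cows. Cow 40 fell within the saline range, and the difference was 1.17 (SE 0.36), with adjusted P = 1 by limma. UBA7, the enzyme that activates ISG15, differed by 0.60, also with adjusted P = 1. Of the 21 effectors 1, IFITM2, had all B12 cows above all saline cows, by a mean of 0.40, where 2.2% of all probes were so separated.

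**Figure D4:**
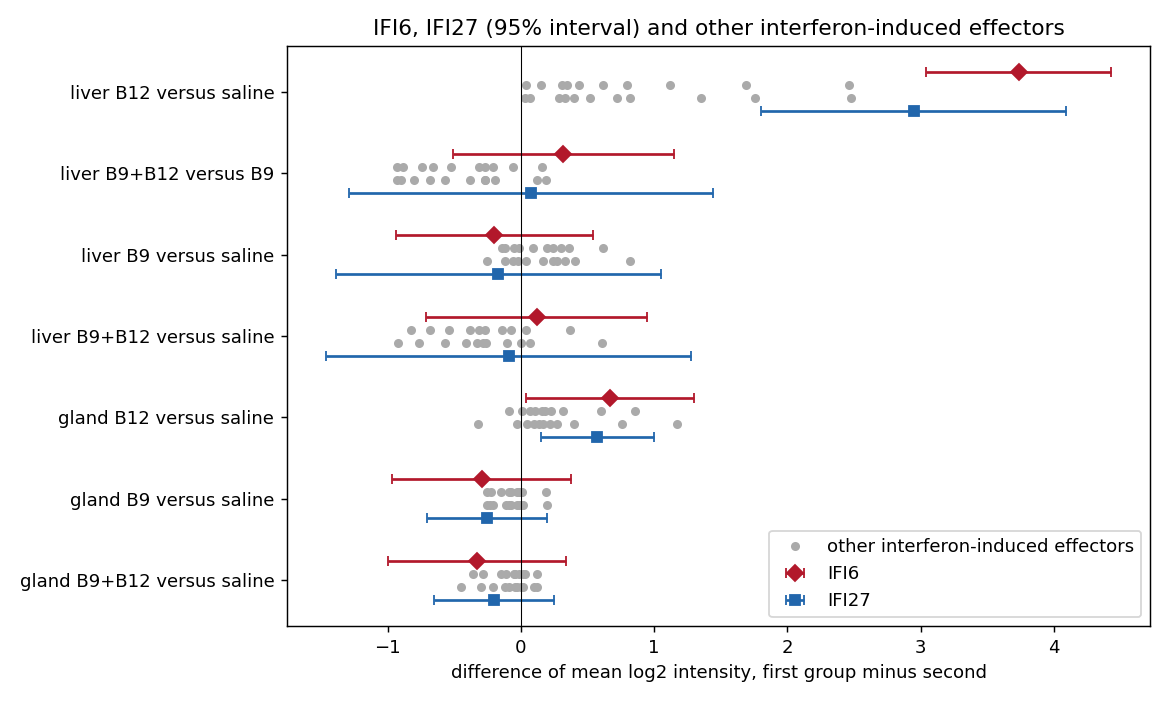
Difference of mean log2 intensity for IFI6 and IFI27 (with 95% intervals) and, in grey, for the 21 other interferon-induced effectors, in 4 liver and 3 mammary gland comparisons. For B12 against saline in liver, IFI6 at 3.74 and IFI27 at 2.95 lie beyond every grey point because they were chosen by this difference, and their intervals there are a description. In the other 6 comparisons their differences lie between −0.33 and 0.67.

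The genes most like IFI6 and IFI27 were found by Pearson correlation of each gene's brightest probe over the arrays of a tissue, among 11067 other genes. In liver, over 12 arrays, IFI6 and IFI27 were closest to each other (r = 0.96). The next for IFI6 were SPP1 (osteopontin, 0.91), CDK5R1 (an activator of the kinase CDK5, 0.91), UBE3D (0.90) and SNAPC3 (0.85). For IFI27 they were CDK5R1 (0.94), SPP1 (0.89), UBE3D (0.87) and PEX5L (0.85). None of these 5 genes is in the effector list, and HERC6 ranked 14 and ISG15 ranked 31 for IFI6, with r = 0.79 and 0.75. SPP1, CDK5R1 and PEX5L were dim in liver, with group means of 6.23 to 6.84, 6.36 to 6.87 and 5.91 to 6.07. In the saline livers OAS1X, not well above background there, averaged 5.98. Without the arrays of cows 57 and 32, r between IFI6 and IFI27 was 0.98, and CDK5R1 came next for both (0.96 and 0.95). These correlations rest on the same 4 B12 arrays that chose the genes.

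In mammary gland, over 13 arrays, the order was another. IFI6 was most like OAS1Y (0.90), ISG15 (0.88), YRDC (0.87), LTV1 (0.85) and UBE3C (0.85), and IFI27 most like ISG15 (0.92), UBA7 (0.91), the DNA repair enzyme APEX1 (0.90), PLAC8B (0.87) and IPO4 (0.86). IFI6 and IFI27 had r = 0.81 there, which ranked 17 for IFI6. All values of a tissue come from the same arrays and normalization, and the correlations are descriptions.

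The list of mammary epithelium genes lay above saline in its median in the livers of all vitamin groups, but not in its summed intensity. The median difference from saline of the 7 mammary epithelium genes matched by symbol was 1.68 with B12, 0.82 with B9 and 0.74 with B9+B12. All cows of the group lay above all saline cows for 0 of the 7 genes with B12, for 4 with B9 and for 5 with B9+B12, where 2.46%, 4.29% and 11.8% of all probes did. Without the arrays of cows 57 and 32 the medians were 0.28 with B9 and 0.98 with B9+B12, and again 4 and 5 genes lay wholly above, where 7.53% and 22.2% of all probes did. None was called in the comparisons of B9 or B9+B12 with saline. The casein gene CSN1S1 had liver levels of 11.73, 11.35, 9.46 and 7.07 in B12 cows 36, 37, 40 and 52, of 7.71, 7.90 and 7.94 in the saline cows, and of 10.11 in B9 cow 57. Of the 7 genes 4 were at least 2-fold higher with B12 in the mean (CSN1S1 2.05, PAEP 1.81, LALBA 1.77 and CSN3 1.68), and the other 3 were not (ELF5 0.10, BTN1A1 −0.08 and XDH −0.12). Over all probes, 0.17% were at least 2-fold higher with B12 in liver. The list's summed intensity, which takes in XDH at a mean level of 15.84 with saline, was 41526 to 72681 with B12 and 54983 to 68788 with saline. With B9 it was 33576 to 52922 and with B9+B12 36254 to 43811, both below all saline cows. Cow 52 had the lowest CSN1S1 level of all 12 livers, with IFI6 at 16.81 and IFI27 at 17.08. The mammary level of IFI6 and IFI27 was below the liver level in every cow with both tissues. The B12 livers are among those that chose both genes. The part of mammary epithelium or other cells in the IFI6 and IFI27 differences was not tested. The macrophage, T and NK cell, B and plasma cell and neutrophil lists had median liver differences with B12 of 0.01, 0.03, −0.01 and 0.07, against 1.68 for the mammary epithelium list, and all their matched genes were well above background in at least 50% of liver arrays. Their summed intensities with B12 and with saline were 154946 to 180427 and 147101 to 176855 for macrophages, 5157 to 6392 and 4656 to 6815 for T and NK cells, 1225 to 2775 and 1358 to 2895 for B and plasma cells, and 2678 to 16211 and 3233 to 9784 for neutrophils.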

How the data were processed

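Biopsies of 13 cows were measured on 25 arrays. The authors deposited scanner files, where the intensity of a spot and of its surrounding background had not been normalized (Agilent Feature Extraction 9.1 per the labels, 10.7.3.1 per the file headers). The authors also deposited a table of log2 values, background-corrected with normexp and normalized between arrays. Their values equalled normexp with an offset of 16 and quantiles within each tissue, with a median difference of 2.96e-10 in liver.

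Here the median signal was corrected with normexp (offset 50) and normalized by quantiles within a tissue, or over both tissues to compare them. Outlier and control spots (45220 spots, 43803 not controls) were left out, and spots of a probe were averaged. Names were paired through RefSeq (53.9% of probes, 11068 symbols), and the brightest probe stood for a gene. Models of limma (3.58.1, run with the data.table package 1.17.8 under R 4.3.3) were fitted to all arrays of a tissue with Benjamini-Hochberg adjustment over 43653 probes. Limma in place of Cyber-T (window 101, confidence 10) was the main test. Scripts were tested on simulated data. Nothing in the labels or files gave a depth, and the number of arrays limits the precision.

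Cow numbers in the labels pair the tissues of an animal. The correlation of deviations from group means over all probes between the tissues of a cow ranged from −0.25 to 0.26 (median 0.03), above 0.1 in 4 of 12 cows. The genes named are IFI6, IFI27 and their family, the pathway genes by role, and the 5 genes most alike in each tissue, and 1 pathway gene is not reported here. The members and lists were chosen with earlier results of these data known.

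The alternatives were 75th percentile scaling of the processed signal, no background correction, 75th percentile scaling after normexp, the authors' table, a filter on dim probes, outlier spots kept, the mean of a gene's probes, slide as a random or fixed block, Cyber-T, a fit of the compared groups, quantiles over both tissues, the cow as a block, the B9 and B9+B12 cows alone, and each array left out in turn.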

Additional observations from a re-analysis of the deposited data

Results flagged for a closer look

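Of 52 groups of 4 cows examined for the genes named, 3 held a cow far from the other 3, and chance gives about 1 such group in 20. For ISG12(B), the neighbour of IFI27, B12 cow 36 lay above the other B12 livers by 0.964 of the range of its group. For OAS1X in mammary gland, B12 cow 37 lay at 7.16 against 5.86 to 5.89 in the other B12 cows, a gap of 0.977 of the range. For CSN1S1 in mammary gland, B12 cow 40 lay at 18.69 against 18.74 in the other 3 cows, a gap equal to the whole range (a share of 1). CSN1S1 ranked from 2 to 6 in brightness among all probes there, and its 13 mammary levels took 5 distinct values to 2 decimals after quantile normalization, from 18.65 to 18.78. No IFI6 or IFI27 probe had such a cow.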

How the results depend on the processing

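Neither IFI6 nor IFI27 was called in any of the 6 treatment comparisons tested, under any alternative. Liver against mammary gland averages in the B12 and saline livers that chose the genes, so its calls are read from the B9 and B9+B12 cows alone. There both genes were called higher in liver, and without cows 57 and 32, a setting added after seeing the data, IFI27 was not, at 0.699 (adjusted P = 0.105 by limma). With the cow as a block over all cows with both tissues, the gap was 2.33 for IFI6 and 1.92 for IFI27, and this block changed no call. The small liver differences of the groups with folic acid changed sign in several settings, and the cause was not tested. B9 against saline became 0.0162 (IFI6) and 0.0413 (IFI27) with the processed signal, 0.039 (IFI27) with the 75th percentile after normexp, and 0.412 and 1.31 with slide as a fixed block. B9+B12 against saline became 0.142 and 0.134 for IFI27 in the first 2 of these, and −0.314 for IFI6 without the liver arrays of cows 57 and 32, a setting added after seeing the data, as were array weights. B9+B12 against B9 became −0.233 and −1.43 with slide as a fixed block.

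Leaving out 1 array at a time gave the following ranges for IFI6 and IFI27. In liver, B9+B12 against B9 ranged from −0.114 (without cow 32) to 0.752 (without cow 38) and from −0.509 (without cow 39) to 0.726, B9 against saline from −0.438 (without cow 57) to −0.053 and from −0.818 (without cow 57) to 0.416 (without cow 39), and B9+B12 against saline from −0.314 (without cow 32) to 0.552 (without cow 38) and from −0.496 (without cow 32) to 0.311 (without cow 38). In mammary gland, B12 ranged from 0.469 to 0.847 and from 0.409 to 0.672, B9 from −0.5 to −0.184 and from −0.413 to −0.0862, and B9+B12 from −0.457 to −0.088 and from −0.368 to −0.107. Liver against mammary gland ranged from 2.20 to 2.40 and from 1.74 to 2.03. B12 against saline in liver, as values with no test, ranged from 3.53 to 3.94 and from 2.69 to 3.20, and over all other settings from 3.39 to 3.96 and from 2.64 to 3.26. The processed signal gave 19637 calls between the tissues against 8120, and the mean of a gene's probes 4587 of 27841 names. Without B9+B12 cow 38, 30 probes were called against B9 and 66 against saline, without cow 32, 3 and 7, and without cows 57 and 32 together, 3 and 9. Each of these settings leaves 1 B9+B12 liver array, which is assumed to vary like the other groups. Without saline cow 43, 1 probe was called in each mammary comparison. The authors' table was not run between the tissues because it was normalized within each tissue. Groups of 2 to 4 cows limit what these comparisons can show.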

Other observations

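IFI27L2, which lies next to IFI27, had the opposite tissue order. On values normalized over all arrays, its level ranged from 9.04 to 10.98 in the 12 livers (median 10.36) and from 11.46 to 13.56 in the 13 mammary glands (median 12.92), so that the tissues did not overlap. IFI6 ranged from 11.78 to 16.84 in liver and from 10.00 to 12.27 in mammary gland. IFI27 (A_73_P150766) ranged from 11.89 to 16.81 and from 11.33 to 12.94. Both overlapped between the tissues on this scale. In the spot signals before normalization the overlap was the other way round. IFI27L2 reached 3534.5 in liver and went down to 1672.5 in mammary gland. IFI6 was at least 6253 in liver and at most 2742 in mammary gland, and IFI27 at least 7697 and at most 4242.

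Among the interferon gamma targets in mammary gland, IDO1, which degrades tryptophan, differed from saline by 1.04 with B12, −0.48 with B9 and −0.96 with B9+B12, and GBP4, a guanylate-binding GTPase, by 0.50, 0.06 and −0.06. The list's medians were 0.13, −0.31 and −0.24, and none of its genes was called.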
